A study of Caenorhabditis elegans with 41 samples.

Results

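Embryos of 2 *Caenorhabditis elegans* strains were compared gene by gene by mRNA-seq, outside the duplications of TY1916 and the deletion of VC100. TY1916 carries yDp11 (X;IV), a duplicated piece of the X chromosome attached to chromosome IV, together with the X-linked mutations lon-2(e678) and unc-9(e101), and it also has uncharacterized extra copies of DNA on the right of chromosome IV and at the left tip of V. VC100 carries gkDf2, a small deletion of X, and the mutation unc-112(r367) on chromosome V. Neither strain is the wild type, so a difference between them cannot be assigned to either strain from these 6 libraries. There were 3 libraries of embryos per strain. For TY1916 and SP117 the study describes embryos of mixed developmental age, released by bleaching egg-bearing adults. Its methods do not name VC100 there, and the sample titles of VC100 say only that these were embryos. The age at collection was not recorded in the sources used here, so strain and embryo age cannot be told apart by design. A further strain, SP117, which carries mnDp10 (X;I), a larger piece of X that includes the yDp11 segment, and the mutation unc-3(e151), took no part in the test. Its 2 embryo libraries were set beside the others. With them, 4 SP117 libraries of L2-L3 larvae and 3 of young adults served to say at which stage a gene is high in that strain, which is not the wild type.

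The genes compared were all usable genes outside the duplications of TY1916 (chromosome X from 12.27 to 13.3 Mb, chromosome IV from 12.59 Mb to its end and chromosome V up to 0.45 Mb, WS220 coordinates) and outside the deletion of VC100 (chromosome X from 8.05 to 8.09 Mb). This left 19341 of the 20390 genes listed. Smaller copy number changes of the strains, among them extra DNA close to the deletion in VC100, were not left out, and 3410 genes were called when X genes within 0.2 Mb of the deletion were also left out. Of these, 12562 reached a mean of at least 1 FPKM (fragments per kilobase of transcript, scaled to the mapped fragments of a library) over the 6 libraries and were tested, and 6779 did not. Ratios are given as differences of log2(FPKM + 0.1), TY1916 minus VC100, and understate the change of low genes. A gene was called different at an adjusted p under 0.05 in limma with Benjamini-Hochberg adjustment over all 13118 genes tested.

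The *C. elegans* embryo starts with RNA that the mother's germline loads into the oocyte. This maternal RNA is degraded as the embryonic genome is switched on, first in a few founder lineages, and cell division is largely complete before the embryo elongates, builds muscle, nerve, gut and skin, and lays down its first cuticle. Maternal RNAs, early zygotic RNAs and the RNAs of differentiated tissue therefore rank embryos by age, although a mixture of ages and a change within cells give the same bulk signal. In bulk RNA, fewer cells of a type and less RNA per cell cannot be told apart.

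Of 9 genes that touch the VC100 deletion, 8 were lower in every VC100 library than in every TY1916 library, such as the muscle gene dim-1 with 408, 307 and 309 FPKM in TY1916 and 1.71, 1.86 and 0.525 FPKM in VC100. The exception was catp-5, most of which lies past the edge, with 4.17, 3.72 and 3.91 FPKM against 1.89, 4.08 and 4.06 FPKM. lon-2, which encodes a glypican that restrains body size and is mutated in TY1916, had 4.55, 4.75 and 2.90 FPKM in TY1916 against 17.7, 14.4 and 20.8 FPKM in VC100 (log2 ratio -2.1, SE 0.28, adjusted p = 0.00595). unc-112, a muscle attachment gene mutated in VC100, was not called (log2 ratio 0.57, adjusted p = 0.21). The depth of a library, estimated from the spacing of its low FPKM values, was 51.8% to 75.6% of the deepest embryo library in TY1916 and 29.8% to 48.4% in VC100. Library 1 of VC100 stood apart: its rank correlation with the other VC100 libraries across genes was 0.928 and 0.929, while these had 0.991 with each other.

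Of the 12562 genes tested, 3423 (27.2%) were called different. There were 2318 (18.5%) higher and 1105 (8.8%) lower in TY1916, and 5858 had an unadjusted p under 0.05. The ranges of the strains did not overlap for 6873 genes (54.7%). The median log2 ratio was 0.10, and it became -0.02 with libraries centred on their medians, -0.09 after quantile normalization and 0.22 with TPM (transcript abundances scaled to an equal sum in every library). The share of called genes that were higher moved with this, from 67.7% to 51.4%, 45.4% and 75.6%. Of all genes tested, 2079 were higher and 1966 (15.7%) lower when centred, while the shares were 9.58% and 11.5% after quantile normalization, and 20.7% and 6.67% with TPM. Each list below is therefore read against these shares. Genes could pass the filter through one strain alone, and with at least 1 FPKM required in every VC100 library 1633 were higher and 1094 lower of 10829. The counts also rested on single libraries: 259 genes were called without TY1916 library 1, 953 without library 2, 1085 and 1372 without VC100 libraries 2 and 3, and 1730 without TY1916 library 3. Without VC100 library 1, 5031 were called, 26.5% of the genes higher and 13.4% lower.

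Genes of the early embryo were lower in TY1916. Of 26 maternal RNA-binding and polarity genes tested, 16 were called lower and 0 higher, with a median log2 ratio of -1.10. The list's mean level was 5.68, 6.06 and 6.46 on the log2 scale in the TY1916 libraries and 6.98, 6.97 and 6.89 in those of VC100, without overlap, as for 23 of its 26 genes. nos-2, a Nanos-type translational regulator of the germline precursors (chromosome II, 7065594 to 7067008), had 29.2, 44.9 and 81.9 FPKM in TY1916 and 203, 161 and 136 FPKM in VC100 (52 ± 27.1 against 167 ± 33.8, SD, n = 3 each; log2 ratio -1.79, SE 0.38, adjusted p = 0.0190). cey-3, a germline cold-shock domain RNA-binding protein, showed the lowest ratio of the list, with 26.4, 24.6 and 72.4 FPKM against 306, 125 and 108 FPKM (log2 ratio -2.15, SE 0.53, adjusted p = 0.0282). In both genes TY1916 library 3 lay closest to VC100. The Pumilio-family gene puf-11 was 3.59-fold higher in VC100. Leaving out each library in turn left medians from -1.35 to -0.78, but the lower calls in this list numbered 0, 0 and 14 without TY1916 libraries 1, 2 and 3, and 20, 3 and 5 without VC100 libraries 1, 2 and 3.

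Other germline-derived RNAs had the same direction, and 0 genes of the next 3 lists were called without TY1916 library 1. Of 12 eggshell and oocyte surface genes, egg-2, egg-3, egg-4 and egg-5 were lower and 0 higher (median -1.38), with egg-3, which acts at the egg surface after fertilization, at 9.41, 12.4 and 22.9 FPKM against 55.5, 31.6 and 35.6 FPKM (log2 ratio -1.51, SE 0.37, adjusted p = 0.0288). Of 18 P granule and small RNA genes, 7 were lower and 0 higher (median -0.76). The conserved RNA helicase gene cgh-1 had 67.6, 78.1 and 89.3 FPKM against 171, 169 and 152 FPKM (log2 ratio -1.07, SE 0.19, adjusted p = 0.0121), a clear gap between tight groups. Of 17 meiotic pairing and synapsis genes, 4 were lower and 0 higher (median -0.81), the cohesin genes coh-3 and coh-4, the axis gene htp-2 and zim-2, a pairing-centre zinc finger gene. The maternal and these 3 lists had still higher mean levels in SP117 young adults than in SP117 embryos. The defining adult RNAs were low but uneven: the 6 vitellogenin (yolk protein) genes summed to 3.51, 45.1 and 28.6 FPKM in TY1916 and 27.2, 0.856 and 0.757 FPKM in VC100, against 23400 FPKM in SP117 young adults. The 30 major sperm protein genes summed to 5.5, 14.7 and 64.9 FPKM and to 49.9, 6.25 and 7.75 FPKM. As lists, 0 of 6 vitellogenin genes were called (median 2.02), although 5 were higher in TY1916 without VC100 library 1, 0 of the 6 sperm protein genes tested, and of the 2 adult cuticle collagens tested rol-6 was higher. In VC100 libraries 1, 2 and 3 the mean level was 6.98, 6.97 and 6.89 for the maternal list, 4.13, 3.65 and 3.24 for the eggshell list and 4.29, 3.72 and 3.74 for the meiotic list, so the last pair were highest in the library with the most adult RNA. In TY1916 the eggshell list had 2.17, 2.49 and 3.49, in the order of the sperm protein sums. The part of adult RNA in the lists was not tested.

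Cell cycle genes were lower as well. Of 34 DNA replication and mitosis genes, 13 were called lower and 1 higher, with a median of -0.69. There were 0, 0 and 6 lower calls without TY1916 libraries 1, 2 and 3, and 25, 3 and 3 without VC100 libraries 1, 2 and 3. The B-type cyclin gene cyb-2.1 had 19.2, 34.4 and 47.1 FPKM in TY1916 and 143, 94.5 and 86.7 FPKM in VC100 (log2 ratio -1.74, SE 0.36, adjusted p = 0.0187). Its near-identical paralog cyb-2.2 gave a log2 ratio of -1.70, and reads could have been split between the pair. The exception was klp-7, a microtubule-depolymerizing kinesin, with 49.4, 44.0 and 37.1 FPKM against 17.8, 27.1 and 26.3 FPKM (log2 ratio 0.88, SE 0.24, adjusted p = 0.0356). Of 69 histone genes, 5 were lower and 1, his-35, higher (median -0.68), a share of lower calls (7.25%) below the background of 8.8%. Most replication-type histone RNAs lack the poly(A) tail by which the RNA was purified, and many histone genes are near-identical copies, so this list is the least certain.

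The first genes switched on in the embryo were also lower in TY1916. Of 21 early zygotic genes, 11 were lower and 0 higher (median -1.08), and the list's mean log2 level was 2.6, 3.42 and 3.34 in TY1916 against 4.53, 4.03 and 4.04 in VC100. In SP117 the mean log2 level was 3.84 in embryos, -1.15 in larvae and 0.05 in young adults, so adults had little RNA of these genes. The list kept a median of -0.80 or lower whichever library was left out, with 0, 2 and 6 lower calls without TY1916 libraries 1, 2 and 3 and 10, 3 and 3 without VC100 libraries 1, 2 and 3. end-3, a GATA factor that starts the gut lineage (chromosome V, 14014685 to 14015961), had 2.46, 4.49 and 5.40 FPKM in TY1916 and 14.7, 10.5 and 10.9 FPKM in VC100 (log2 ratio -1.58, SE 0.34, adjusted p = 0.0209). The mesodermal homeobox gene ceh-51 had 18.7, 26.1 and 19.1 FPKM against 100, 44.7 and 52.1 FPKM (log2 ratio -1.54, SE 0.33, adjusted p = 0.0202). In both genes every TY1916 library was below every VC100 library. Of 31 genes named for their dependence on SKN-1 in the early embryo (sdz), 12 were lower and 1 higher (median -1.09). sdz-13 had 2.06, 3.68 and 3.36 FPKM against 23.9, 10.6 and 9.77 FPKM (log2 ratio -2.16, SE 0.41, adjusted p = 0.0152). The sdz gene that was higher was sdz-35 (6.04, 4.53 and 3.8 FPKM against 0, 0.176 and 0.262 FPKM), named after its values were seen.

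Few regulators that act in mid-embryogenesis were called, which does not show that they were equal. Of 30 lineage and organ regulators, 3 were lower and 1 higher, with a median log2 ratio of 0.13. Without VC100 library 1 the median turned to -0.20 and 10 were lower. The higher gene was mec-3, a homeobox gene of touch neurons. The lower genes were tbx-9, hnd-1 and pal-1, which act in early body wall muscle, mesoderm and posterior fates, and pal-1 also counts among the maternal genes. The caudal homolog pal-1 had 58.6, 61.6 and 72.2 FPKM in TY1916 against 109, 111 and 114 FPKM in VC100 (log2 ratio -0.80, SE 0.18, adjusted p = 0.0228). Of 9 Hox genes and cofactors, 0 were called in either direction (median 0.05, turning to -0.06 when libraries were centred on their medians). Of 51 ceh homeobox genes, 6 were higher and 3 lower (ceh-21, ceh-49 and the early gene ceh-51; median 0.12, and -0.01 after quantile normalization). The Hox and ceh lists were below the background of 18.5% higher and 8.8% lower calls.

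**Figure D1:**
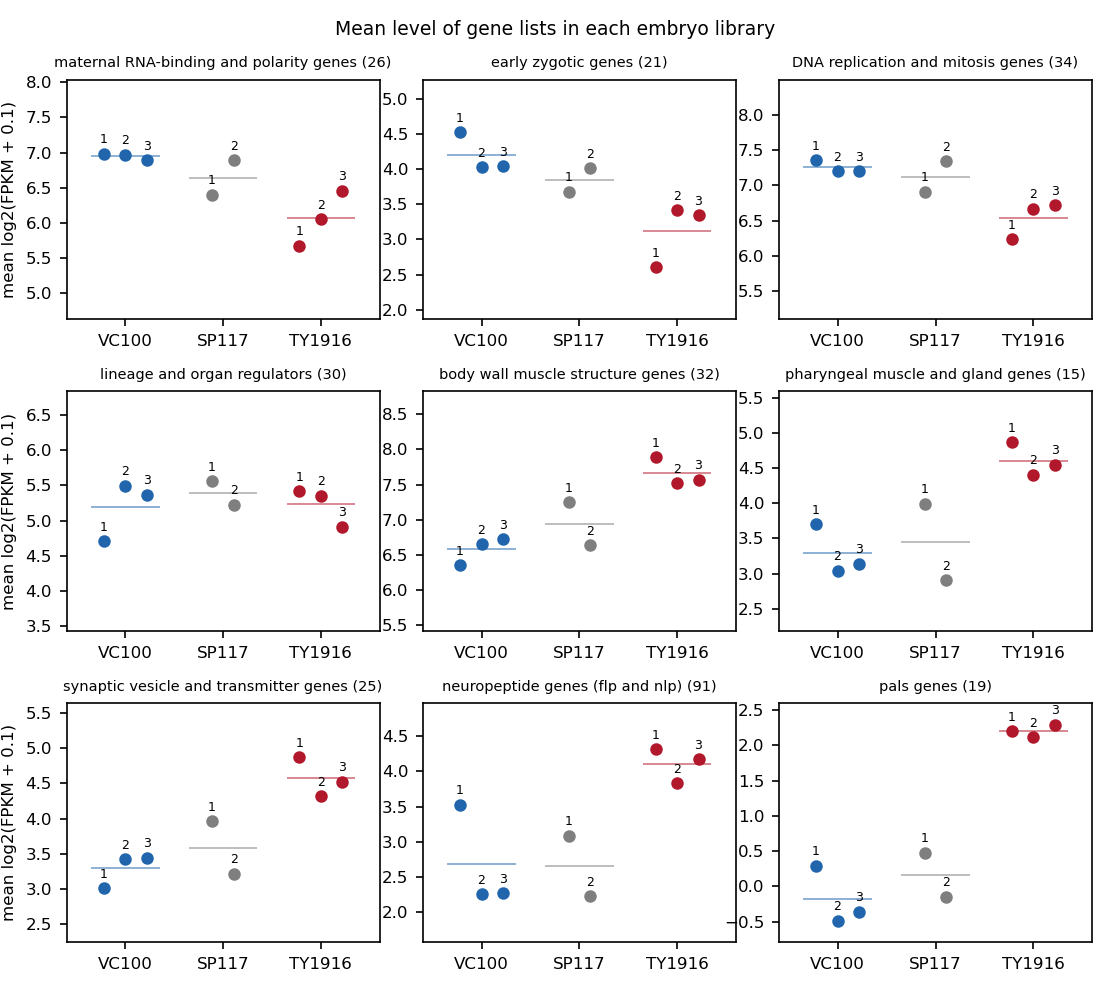
Mean log2(FPKM + 0.1) of the tested members of 9 gene lists in each embryo library of VC100 (blue), SP117 (grey) and TY1916 (red). Each point is a library with its replicate number, lines are strain means and numbers in titles are genes. Maternal and early zygotic lists were lowest in TY1916 library 1 (5.68 and 2.6), muscle and nerve lists were highest there (7.89 and 4.87), and the pals genes were between 2.12 and 2.29 in the TY1916 libraries and at or below 0.48 in all others.

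Genes of differentiated tissues were higher in TY1916. Of 32 body wall muscle structure genes, 18 were called higher and 0 lower, with a median log2 ratio of 1.05. The list's mean log2 level was 7.89, 7.52 and 7.57 in TY1916 and 6.36, 6.66 and 6.73 in VC100. There were 2, 7 and 10 higher calls without TY1916 libraries 1, 2 and 3 and 23, 8 and 9 without VC100 libraries 1, 2 and 3, with medians between 0.89 and 1.17. unc-54, the major body wall myosin heavy chain gene (chromosome I, 14852480 to 14863529), had 536, 378 and 453 FPKM in TY1916 against 46.7, 110 and 107 FPKM in VC100 (456 ± 79.2 against 87.8 ± 35.6, SD, n = 3 each; log2 ratio 2.46, SE 0.35, adjusted p = 0.00705). It was called in 5 of the 6 fits that left out a library. Of 15 pharyngeal muscle and gland genes, 9 were higher and 0 lower (median 1.08), but 0 without TY1916 library 1, 3 and 3 without libraries 2 and 3, and 13, 2 and 3 without VC100 libraries 1, 2 and 3. In VC100 4 of these 9 averaged under 1 FPKM. The pharyngeal myosin gene myo-1 had 51.9, 31.7 and 46.9 FPKM against 7.85, 12.1 and 13.3 FPKM (log2 ratio 1.97, SE 0.29, adjusted p = 0.00762). The titin-like gene unc-22, one of the longest genes of the worm, had 0.569 FPKM in VC100 library 1 against 4.98 and 5.12 FPKM in VC100 libraries 2 and 3, so its log2 ratio of 2.81 rested partly on that library.

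Nerve genes were higher in TY1916 as well. Of 91 flp and nlp neuropeptide genes, 59 were higher and 0 lower (median 1.54), and of 25 synaptic vesicle and transmitter genes, 15 were higher and 0 lower (median 1.53, and 1.13 without VC100 library 1). The neuropeptide list had mean log2 levels of 4.32, 3.83 and 4.17 in TY1916 and of 3.53, 2.25 and 2.27 in VC100. egl-21, a carboxypeptidase that matures neuropeptides (chromosome IV, 10478421 to 10481824), had 69.4, 47 and 56.8 FPKM against 17.6, 11.3 and 13 FPKM (log2 ratio 2.04, SE 0.25, adjusted p = 0.00419) and was called whichever library was left out. The synaptic vesicle priming gene unc-13 had 22.0, 14.8 and 19.7 FPKM against 1.61, 5.28 and 5.72 FPKM (log2 ratio 2.31, SE 0.48, adjusted p = 0.0189). The neuropeptide list had 4, 22 and 27 higher calls without TY1916 libraries 1, 2 and 3 and 78, 23 and 24 without VC100 libraries 1, 2 and 3, with medians between 1.34 and 1.89.

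Gut and skin genes were higher in part, with at most 2 calls in each list without TY1916 library 1. Of 19 intestinal genes, 9 were higher and 1 lower (median 1.02). The intestinal intermediate filament gene ifb-2 had 255, 185 and 214 FPKM in TY1916 and 75.7, 64.7 and 71.1 FPKM in VC100 (log2 ratio 1.62, SE 0.20, adjusted p = 0.00419). The lower gene was fat-6, a stearoyl-CoA desaturase, with 5.65, 5.42 and 10.7 FPKM against 29.7, 19.6 and 20.4 FPKM (log2 ratio -1.72, SE 0.33, adjusted p = 0.0155); SP117 embryos, at 8.88 and 5.46 FPKM, were at the TY1916 level. Of 150 collagen (col) genes, 54 were below the filter, and of 96 tested 29 were higher and 1, col-38, lower (median 1.14). In VC100 21 of the 96, 4 of them called, averaged under 1 FPKM and passed the filter through TY1916 alone. The median was 0.89 after quantile normalization. col-103 had 24.0, 22.1 and 23.7 FPKM against 4.20, 1.74 and 1.73 FPKM (log2 ratio 3.26, SE 0.37, adjusted p = 0.00314). Of 67 hedgehog-related and patched-related genes, which act in skin and molting, 27 were higher and 1, ptr-2, lower (median 0.95), and of 11 astacin proteases (nas) 4 were higher and 0 lower (median 1.04). The hedgehog-related gene wrt-8 had 8.17, 6.56 and 12.7 FPKM against 1.07, 1.00 and 1.10 FPKM (log2 ratio 2.94, SE 0.33, adjusted p = 0.00302). Genes that build the embryonic apical matrix and first cuticle differed less, with 4 of 25 higher (dpy-9, dpy-13, dpy-14 and dpy-31) and 0 lower (median 0.68), a share below the background of 18.5%. Of 32 cuticlin genes, 7 were higher and 0 lower (median 0.80), a share of higher calls (21.9%) near the background of 18.5%. After quantile normalization 4 were higher and 1 lower (median 0.34).

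**Figure D2:**
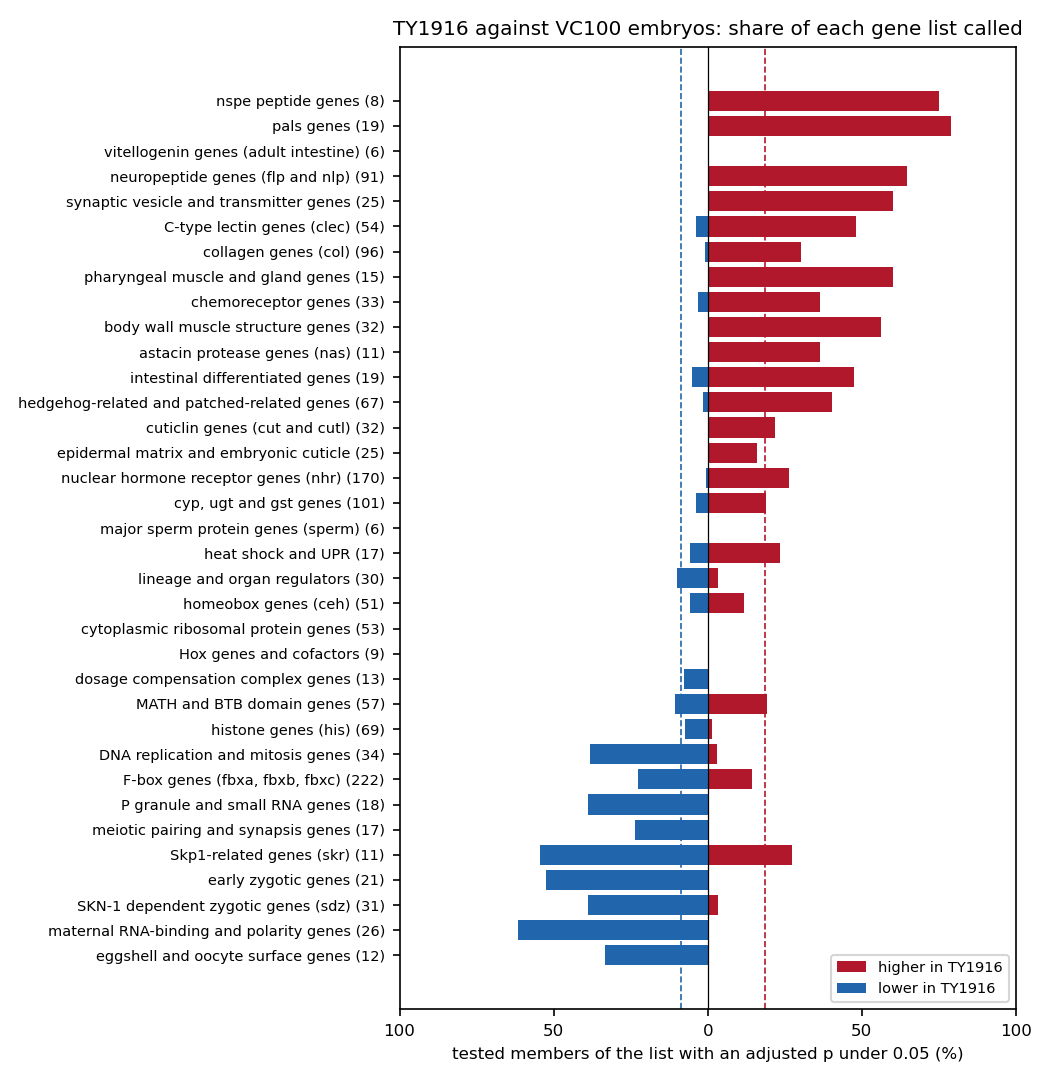
Share of the tested members of each gene list (number in brackets) called higher (red, to the right) or lower (blue, to the left) in TY1916, in order of the list's median log2 ratio. Dashed lines mark the shares over all genes compared (18.5% higher and 8.8% lower), and lists with fewer than 5 tested genes are left out. Maternal and early zygotic lists reached 61.5% and 52.4% lower, and muscle and nerve lists 56.2% to 64.8% higher.

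Classes drawn from the SP117 libraries alone gave the same order over many more genes. Genes at least 4-fold higher in larvae than in both SP117 embryos and young adults numbered 902, and 516 of them were tested. These had 282 higher (54.7%) and 4 lower calls and a median log2 ratio of 1.53. Genes low in embryos could pass the filter through TY1916 alone, which favours higher calls in this class. After quantile normalization it had 159 higher and 10 lower calls (median 0.86). Genes high in both embryos and young adults over larvae (801 tested), the pattern of maternal RNA, had 9 higher and 258 lower calls (32.2%) and a median of -0.84. Genes high in embryos over both later stages (1312 tested) had 82 higher and 255 lower calls (19.4%; median -0.36), and the median was below 0 in all 3 other scalings as well. Of 1406 genes high in young adults, 285 were tested, with 27 higher (9.47%) and 40 lower calls (14%; median -0.27). Over all genes tested the shares were 18.5% and 8.8%. After quantile normalization this class had 12 higher and 102 lower calls (median -1.04). For the remaining 9648 genes the median was 0.20. Without VC100 library 1 the medians of these 5 classes were 1.74, -0.69, -0.39, -0.20 and 0.14.

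The relation was graded. Genes were grouped by their SP117 difference, L2-L3 larvae minus embryos. Of 839 genes below -4 on the log2 scale, 34.2% were lower and 3.34% higher in TY1916, and of 397 genes over 4, 50.4% were higher and 0.504% lower. Genes of the last group could likewise pass the filter through TY1916 alone. Across the 12562 genes the ratio had a Pearson r of 0.53 and a Spearman rho of 0.594 with that difference, which shares no library with it; genes are not independent replicates and these values are descriptive. With the difference of young adults minus embryos the values were 0.115 and 0.0252. With that of young adults minus L2-L3 larvae they were -0.492 and -0.65, so in ranks the ratio followed larvae against adults at least as closely.

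Replicates of one strain varied along the same direction, which was looked at after the values were seen. The 2 SP117 embryo libraries took no part in the test. The difference of SP117 library 1 minus library 2 had a Pearson r of 0.537 and a Spearman rho of 0.696 with the TY1916 minus VC100 ratio across the 12562 genes. Of the 2318 genes called higher in TY1916, 2139 (92.3%) were higher in SP117 library 1 than in library 2, and of the 1105 called lower, 102 (9.23%) were, beside 51.7% of all genes tested. The median of this SP117 difference was -0.52 for maternal genes, -0.42 for early zygotic genes, 0.72 for body wall muscle and 0.88 for neuropeptides. In these lists, 2 libraries of 1 genotype thus differed in the same direction as the 2 strains. Adult RNA also differed between them, with summed vitellogenin of 1.39 and 19.6 FPKM. Within TY1916, library 1 had the lowest maternal and early zygotic levels and the highest muscle and synaptic levels.

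**Figure D3:**
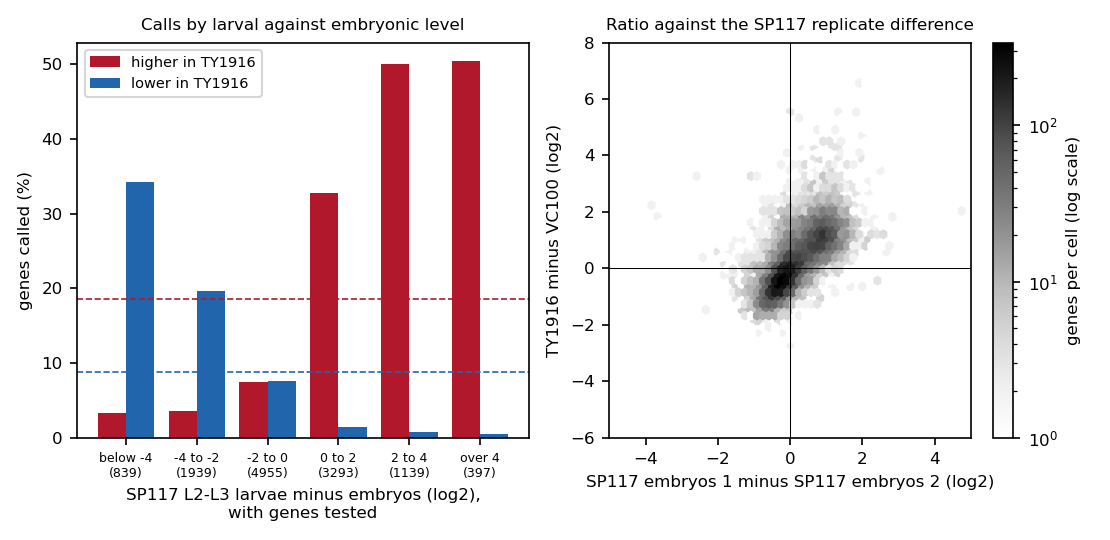
Left, percentage of genes called higher (red) or lower (blue) in TY1916 for groups of genes by their SP117 larval minus embryonic level (log2, genes tested in brackets), with dashed lines at 18.5% and 8.8%. Right, log2 ratio of TY1916 minus VC100 for each of 12562 genes against the difference between the 2 SP117 embryo libraries, as counts per hexagon on a log grey scale. Higher calls rose from 3.34% to 50.4% across the groups, and the cloud on the right runs from lower left to upper right (Pearson r = 0.537).

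For some of the largest differences SP117 embryos were far below TY1916. Among genes called higher, both SP117 libraries were below every TY1916 library in 1802 of the 2318 (77.7%), by any margin. These genes were chosen for high TY1916 values, which favours this, and the share over all genes tested was not counted. In 396 (17.1%) both SP117 libraries were above every VC100 library. Of the 1105 called lower, both were above every TY1916 library in 685 (62%) and below every VC100 library in 612 (55.4%). gst-24, a glutathione S-transferase of the stress response (chromosome II, 13610370 to 13611272), had 99.3, 73.5 and 94.7 FPKM in TY1916, 2.86, 2.55 and 1.76 FPKM in VC100, and 2.30 and 0.945 FPKM in SP117 embryos (log2 ratio 5.18, SE 0.26, adjusted p = 0.000275). The tubulin gene tbb-6 had 69.1, 38.4 and 57.1 FPKM in TY1916 and 0.763, 0.158 and 0.0590 FPKM in VC100 (log2 ratio 7.35, SE 0.61, adjusted p = 0.00131), the largest ratio of the genes named by rule. The F-box gene fbxa-163 had 20.4, 12.4 and 32.1 FPKM against 1.11, 0.736 and 0.616 FPKM, with 1.03 and 0.525 FPKM in SP117 embryos (log2 ratio 4.49, SE 0.41, adjusted p = 0.00165). The C-type lectin gene clec-17 (log2 ratio 4.99, SE 0.48) and the cytochrome P450 gene cyp-33C8 (4.88, SE 0.29) were likewise higher, although clec-17 had 9.59 and 6 FPKM in SP117 embryos, between the strains. For tbb-6, SP117 embryos had 6.62 and 0.409 FPKM. In SP117 larvae, gst-24 had a mean of 31.4, clec-17 of 23.1 and cyp-33C8 of 10.9 FPKM, so these 3 were higher in larvae than in embryos, while fbxa-163 had 0.372 and tbb-6 2.80 FPKM. All 5 were called whichever single library was left out and after quantile normalization. The heavy metal response gene numr-1 had 20.9, 14.5 and 27.2 FPKM against 2.29, 0.218 and 0.271 FPKM (log2 ratio 4.95, SE 0.75, adjusted p = 0.00790).

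A further 4 families, pals, irg, skr and nspe, were counted after their values were seen and are described without weight on their counts. The pals genes, named for a shared protein signature, are best known for members induced by microsporidia and by the Orsay virus. Of 35 pals genes, 16 were below the filter, and of 19 tested 15 were higher and 0 lower in TY1916 (median log2 ratio 2.12). In VC100 10 of the 19, 8 of them called, averaged under 1 FPKM and passed the filter through TY1916 alone. The list's mean log2 level was 2.2, 2.12 and 2.29 in TY1916, 0.29, -0.49 and -0.36 in VC100, and 0.48 and -0.15 in SP117 embryos. Without TY1916 libraries 1, 2 and 3, 7, 8 and 10 were higher, without VC100 libraries 1, 2 and 3, 18, 11 and 11, and after quantile normalization 9. Between the SP117 libraries, 16 of the 19 were higher in library 1 than in library 2 (median 0.67), and the mean level was 1.27 in SP117 larvae. pals-14 (chromosome I, 13139120 to 13141883) had 8.40, 8.45 and 15.1 FPKM in TY1916, 0.466, 0.289 and 0.0720 FPKM in VC100, and 0.347 and 0.35 FPKM in SP117 embryos (log2 ratio 4.95, SE 0.52, adjusted p = 0.00253). pals-22 and pals-25, neighbouring genes known to hold this response in check and to promote it, had log2 ratios of 0.88 (adjusted p = 0.0354) and -0.15 (adjusted p = 0.727). Of 4 irg genes tested, named for their response to bacterial infection, irg-1, irg-2 and irg-7 were higher. irg-1 and irg-2 averaged 0.467 and 0.298 FPKM in VC100 and passed the filter through TY1916 alone. irg-1 had 9.91, 5.88 and 10.4 FPKM against 0.511, 0.423 and 0.467 FPKM, and 1.83 and 0.651 FPKM in SP117 embryos (log2 ratio 3.92, SE 0.35, adjusted p = 0.00155). SP117 L2-L3 larvae had 11.1 FPKM of irg-1 and 6.6 FPKM of pals-14, and skr-5 had 10.7 FPKM there.

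The Skp1-related genes, which encode ubiquitin ligase adaptors, were divided. Of 11 tested, skr-3, skr-4 and skr-5 were higher and 6 were lower. skr-4 and skr-5 averaged 0.535 and 0.36 FPKM in VC100 and passed the filter through TY1916 alone. skr-5, an adaptor gene induced by intracellular infection, had 14.7, 9.43 and 9.52 FPKM against 0.847, 0.234 and 0 FPKM, with 0.589 and 0.363 FPKM in SP117 embryos (log2 ratio 5.13, SE 0.76, adjusted p = 0.00757). skr-15 had 102.7, 152.9 and 166 FPKM against 648, 270 and 282 FPKM (log2 ratio -1.41, SE 0.38, adjusted p = 0.0339), and it was nearly absent from SP117 larvae (0.447 FPKM). The F-box genes, whose products pair with Skp1 proteins, had 32 higher (14.4%) and 50 lower (22.5%) calls of 222 tested (median -0.70). The higher share was below the background of 18.5%, and the lower share was above that of 8.8%. After quantile normalization 13 were higher and 83 lower (median -1.07), and without TY1916 library 1, 4 were higher and 2 lower. Of the called F-box genes, 21 averaged under 1 FPKM in VC100 and passed the filter through TY1916 alone. fbxc-50 had 8.49, 8.15 and 17 FPKM against 61.4, 34.3 and 30.9 FPKM (log2 ratio -1.92, SE 0.38, adjusted p = 0.0167). Of 57 MATH and BTB domain genes, 11 were higher and 6 lower (median -0.18), near the background. The 8 nspe genes, which encode short secreted peptides, had 6 higher and 0 lower calls, led by nspe-7 with 409, 217 and 408 FPKM against 10.1, 1.52 and 1.13 FPKM (log2 ratio 6.92, SE 0.75, adjusted p = 0.00267). They lie side by side on chromosome II and resemble each other, so the FPKM of single copies is uncertain.

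**Figure D4:**
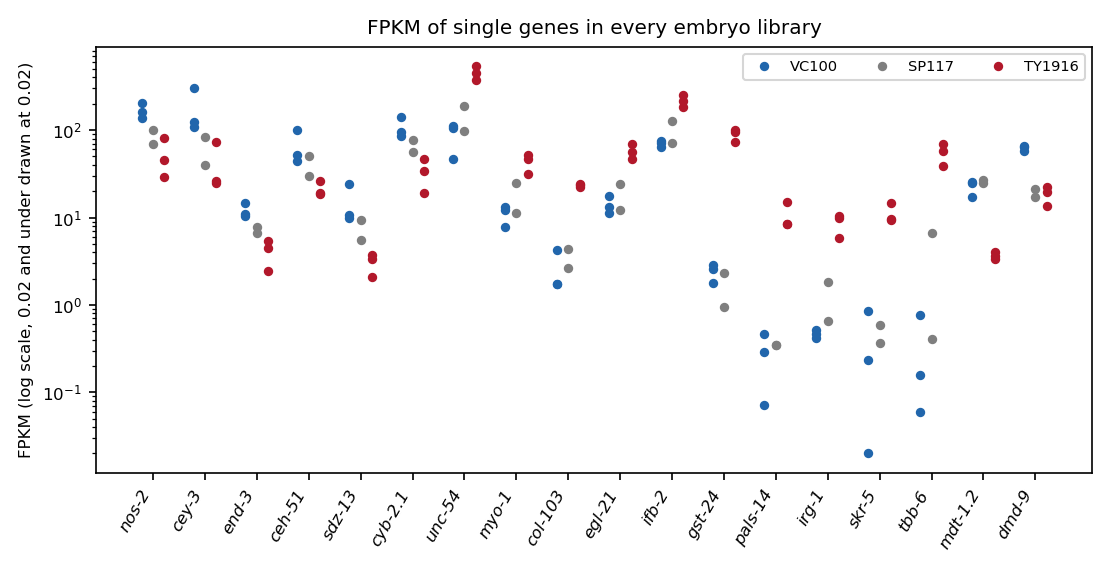
FPKM on a log axis of 18 genes in each embryo library of VC100 (blue), SP117 (grey) and TY1916 (red). From nos-2 to cyb-2.1 TY1916 lay below VC100, from unc-54 to ifb-2 above it, and from gst-24 to skr-5 both SP117 libraries were at least 3-fold below every TY1916 library.

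Other families of environmental response and sensory genes were higher in TY1916 in part. Of 54 C-type lectin genes, 26 were higher and 2 lower (median 1.30). Those lower, clec-87 and clec-88, are high in SP117 young adults and embryos and low in larvae. Of 33 chemoreceptor genes that passed the filter out of 1269 compared, 12 were higher and 1, srw-85, lower (median 1.05), but the median became -0.16 after quantile normalization, with 3 higher and 7 lower. Of 170 nuclear hormone receptor genes, 45 were higher and 1, nhr-2, which is transcribed in early embryos, was lower (median 0.59, and -0.03 with 14 higher and 12 lower after quantile normalization). Of 101 cyp, ugt and gst genes, 19 were higher and 4 lower (cyp-13B2, cyp-44A1, ugt-23 and ugt-58; median 0.49, and -0.14 with 8 higher and 16 lower after quantile normalization), near the background of 18.5%. Without TY1916 library 1, the higher calls fell to 5 in the lectin, 1 in the chemoreceptor, 3 in the receptor and 2 in the cyp, ugt and gst list. Of the called genes, 10 lectin, 6 chemoreceptor, 11 receptor and 12 cyp, ugt and gst genes averaged under 1 FPKM in VC100. These passed the filter through TY1916 alone. Cytoplasmic ribosomal protein genes had 0 calls among 53 (median 0.11), and of 13 dosage compensation complex and regulatory genes only xol-1, the sex-determination switch, was called (lower, adjusted p = 0.0468). It lies at 8041277 to 8044360 on X, beside the VC100 deletion, and the call was lost when any single library was left out.

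Some heat shock genes varied more between libraries than between strains. The inducible small heat shock gene hsp-16.2 had 108, 95.9 and 2025 FPKM in TY1916 and 612, 144 and 126 FPKM in VC100 (log2 ratio 0.31, adjusted p = 0.851), high in TY1916 library 3 and VC100 library 1. The hsp-16 genes are near-identical pairs. Of 17 heat shock and unfolded protein response genes, hsp-12.6, hsp-17, hsp-25 and hsp-43 were higher and 1 lower. These shares (23.5% and 5.88%) were near the background of 18.5% and 8.8%. The lower gene was sip-1, an embryonic small heat shock protein gene, with 1448, 2249 and 2210 FPKM against 7548, 4252 and 3382 FPKM (log2 ratio -1.30, SE 0.35, adjusted p = 0.0355). The list's median of 0.32 turned to -0.73 without TY1916 library 3.

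Among genes called lower, mdt-1.2, a Mediator subunit gene near the right end of chromosome X (17151445 to 17154513), had the largest difference by rule. It had 4, 3.33 and 3.67 FPKM in TY1916 and 17.1, 25.8 and 24.5 FPKM in VC100 (log2 ratio -2.56, SE 0.25, adjusted p = 0.00215), and it was called whichever library was left out. SP117 embryos had 24.7 and 26.8 FPKM, but the gene lies in the duplication of that strain. dmd-9, a DM-domain gene, had 13.6, 19.7 and 22.4 FPKM in TY1916, 64.1, 66.3 and 58.4 FPKM in VC100 and 17.4 and 21.3 FPKM in SP117 embryos (log2 ratio -1.78, SE 0.24, adjusted p = 0.00553). acdh-2, an acyl-CoA dehydrogenase gene, likewise had 7.64 and 5.16 FPKM in SP117 embryos against 31.6, 43.8 and 54.1 FPKM in VC100. For both genes the SP117 values were below all VC100 values.

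Ratios also differed by chromosome. The median log2 ratio was 0.56 on chromosome X (1879 genes) and 0.50 on chromosome V (2435 genes) against -0.15 to 0.02 on chromosomes I to IV. On X, 453 genes (24.1%) were higher and 102 lower, and on chromosome V 659 (27.1%) were higher and 167 lower. On the autosomes together, chromosome V included, 1865 (17.5%) were higher and 1003 lower. Genes whose SP117 embryonic and larval levels differed by less than 1 on the log2 scale were also taken alone. Their median was 0.68 on X (704 genes), 0.43 on chromosome V (858 genes) and 0.12 on the autosomes together (3925 genes). After quantile normalization the medians were 0.18 on X, 0.09 on chromosome V and -0.14 on the autosomes.

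Gene span moved with the ratio. VC100 library 1 exceeded the mean of VC100 libraries 2 and 3 by a median log2 of 0.86 in genes spanning under 1 kb and was below it by 0.73 in those of 8 kb and over. The other 5 libraries ranged from -0.40 to 0.44 in the same comparison. Of 1241 genes of 8 kb and over, 270 were higher and 19 lower in TY1916 (median 0.47, and 0.12 without VC100 library 1). Without that library the counts of the lists above were mostly larger: 20 of the maternal genes were lower, 23 of the body wall muscle genes and 78 of the neuropeptide genes higher, and 18 of the pals genes higher.

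**Figure D5:**
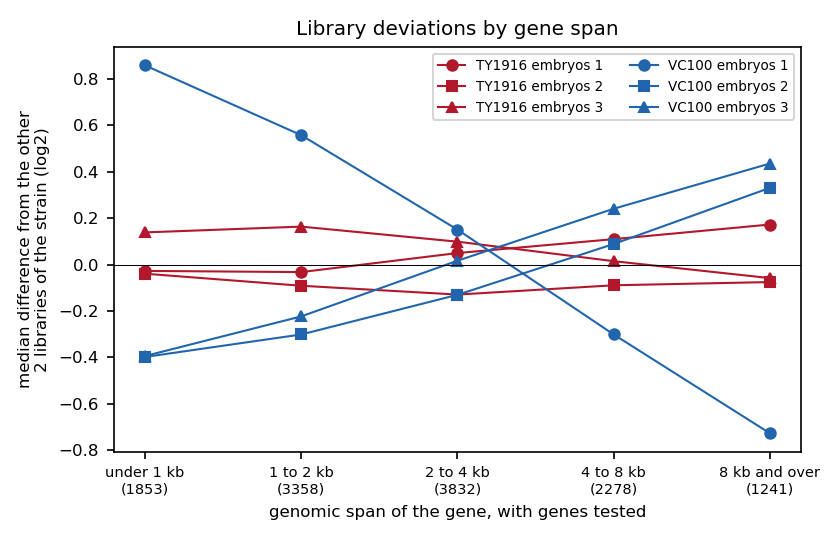
Median difference of each library from the mean of the other 2 libraries of its strain (log2), for genes grouped by genomic span, with the number of genes tested. VC100 library 1 falls from 0.86 in genes under 1 kb to -0.73 in genes of 8 kb and over, and the TY1916 libraries stay between -0.13 and 0.17.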

How the data were processed

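The deposited tables list FPKM values, which the authors computed with Cufflinks 2.2.1 (strand-specific setting) from reads aligned to WS220 (ce10) with HISAT2 2.2.1, and TPM values, whose derivation is not given in the sources used here. RNA was purified on oligo(dT) and libraries were stranded. Read counts were not used here, so depth was judged from the spacing of FPKM values below 0.6. Of 20390 genes, the analysis dropped 51 with failed estimates and 12 of the mitochondrial genome, and 986 lay in the excluded regions. Symbols came from a RefSeq table of assembly WBcel235, used for names only (19880 identifiers matched), and 6 listed symbols had no match. Of 23 mRNA-seq libraries, those of OP37 and BC4289 entered only an alternative fit, and 18 DNA-seq samples were not analysed here.

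limma 3.58.1 (R 4.3.3; lmFit and eBayes with a trend, two-sided) was fitted to log2(FPKM + 0.1), after dropping genes whose average over the 6 libraries was below 1 FPKM. Groups and replicate numbers came from the labels, which do not say whether replicates were separate cultures, so p-values measure the spread between these libraries, which may be technical. The members, the 33 gene lists and the tests were chosen with earlier results of these data known, and 4 families (pals, irg, skr, nspe), gene span and the SP117 replicate comparison were added after seeing the values. Lists were described by counts and medians, with no test over a list. The stage classes used a step of 2 on the log2 scale between SP117 stage means.

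Genes were named by rule: in each list up to 3 called genes per direction with the largest ratio among those averaging 5 FPKM or more, over all genes the 10 higher and 10 lower with the largest ratio among those averaging 10 FPKM or more with ranges that do not overlap, and strain marker genes. Others (among them hsp-16.2, hsp-12.6, mec-3, rol-6, sdz-35, dpy-9, dpy-13 and cyb-2.2) were named after seeing their values. The fit was tested on simulated data. Alternatives were other pseudocounts, filters, scalings and fits, TPM, a block for the replicate number, and fits without each library in turn. Promoter sequences were not analysed here. Analyses used Python 3.11.15, pandas 2.3.3 and matplotlib 3.10.9.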

Additional observations from a re-analysis of the deposited data

How the results depend on the processing

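Counts of calls moved with the libraries used. Leaving out each library in turn gave 259 to 5031 called genes, 232 to 3338 higher and 27 to 1693 lower. The lowest counts were without TY1916 library 1 and the highest without VC100 library 1, and 230 of the 232 higher genes in the first case were among the 2318. Other settings that moved a count by over 1.5 times were a mean FPKM of at least 5 (2214 called, 1290 higher), quantile normalization (1203 higher), centring on library medians (1966 lower) and all mRNA-seq libraries in one fit (1767 lower). Chosen after seeing the data, centring without VC100 library 1 gave 5720 called and 2707 lower, and TPM without it gave 1725 lower. A replicate block gave 805 called genes (762 higher, 43 lower), but the numbers share nothing known and deviations of equal-numbered libraries correlated at -0.205, 0.102 and -0.196, so the pairing has no basis. Pseudocounts of 1 and 0.01, no filter, the filter on VC100, SP117 embryos in the fit, no trend and wider edges kept each total of calls within 1.5 times. Of 138 named genes that were called, 61 stayed called with the block, 116 after quantile normalization and 31 to 136 with a library left out; none of the 138 changed sign in any setting. Among named genes that were not called, the log2 ratio changed sign for pals-1 (-0.63 after quantile normalization and -0.56 with VC100 library 1 also left out), pals-31 (-0.37 and -0.16), irg-3 (-0.48 and -0.45), pals-16 (-0.27 after quantile normalization), pals-25 (0.049 without TY1916 library 2, in a range from -0.47 to 0.049 with a library left out) and skr-1 (-0.11 when centred, and -0.20, -0.15 and -0.10 when centred, quantile-normalized or in TPM without VC100 library 1). The causes were not tested. For skr-1, leaving out single libraries gave log2 ratios from -0.088 to 0.084. The medians of the major sperm protein genes (0.33), the ribosomal protein genes (0.11) and the lists named above also changed sign in at least one setting. Depth limits low genes most: VC100 libraries had 29.8% to 48.4% of the depth of the deepest embryo library.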
